A study of Homo sapiens with 16 samples.

Results

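The proteasome genes of U937 cells were followed over 9 h of treatment with UNBS1450. Members were all genes whose symbol in the platform annotation began with PSMA, PSMB, PSMC, PSMD, PSME, PSMF or PSMG, pseudogenes excluded, and 48 of the 17329 genes with a value on all 16 arrays matched. Of these, 43 encode a subunit, an activator, the inhibitor or an assembly factor of the proteasome, and 5 share only the letters of the symbol. The 43 comprised 8 genes of the alpha ring, 7 of the constitutive beta ring, 3 immunoproteasome subunits, 5 ATPases and 9 non-ATPase subunits of the regulatory cap, 5 activators or inhibitors and 6 assembly factors. PSMB11, PSMC5, PSMD7, PSMD13 and PSMG4 were not analysed here.

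U937 is an established human cell line from a histiocytic lymphoma, and UNBS1450 is a cardenolide, a cardiac glycoside that blocks the sodium and potassium pump of the plasma membrane. Cells treated with 20 nM UNBS1450 were compared with a control culture of the same time point at 0, 3, 6 and 9 h, on 4 arrays of 2 colours per time point, each carrying both RNAs. The methods describe the 0 h cells as untreated, which makes both dyes of these arrays a control, although the labels name the agent there too, and some label fields spell the line U397. The treated sample was labelled with Cy3 in replicates 3 and 4 and with Cy5 in the other two, and the effect of the dye cannot be told apart from that of the replicate pair. The 4 arrays of a time point are labelled as biological replicates.

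The proteasome is the protease that degrades proteins tagged with ubiquitin. Its barrel-shaped core holds outer rings of alpha subunits, which gate the entry, and inner rings of beta subunits, of which PSMB5, PSMB6 and PSMB7 carry the active sites. A cap of ATPases and non-ATPase subunits binds, unfolds and feeds in the substrate, and dedicated chaperones build both parts. In blood cells and after interferon, PSMB8, PSMB9 and PSMB10 replace the constitutive active subunits and form the immunoproteasome, which cuts peptides for presentation on class I molecules. The study asked whether cells lose the survival protein Mcl-1 through proteasomal degradation, and the arrays show whether the mRNA of the machinery itself differed.

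Values are log2 ratios of treated over control RNA within an array. They give no level of a gene, so markers of cell lineage could be checked only for change. The list held myeloid markers, the lineage of U937, and markers of T cells, B cells, epithelium and fibroblasts. Of 17 lineage markers, 14 were measured and none was called at 0, 3, 6 or 9 h in limma. Among all genes 0.531% were called at 9 h and 0% earlier. The lowest marker at 9 h was LYZ at −0.31 (the smallest adjusted p of a marker at 9 h in limma was 0.18). The methods label a fixed amount of total RNA, so a ratio shows neither a change in cell number nor one in RNA per cell. A call required a change of 1.3-fold or more in either direction, which is 0.38 on the log2 scale, and an adjusted p under 0.05 in limma (Benjamini-Hochberg over all genes). Over the 17329 genes, the SD of the log2 ratios on one array ranged between 0.13 and 0.24 except on the array of replicate 4 at 9 h, where it was 0.38.

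No proteasome gene was called at any time point. At 9 h, 0 of 43 were called, beside 92 of 17329 genes (0.531%). That background rests on single arrays: it was 0 genes without the 9 h array of replicate 1 or of replicate 4, 3 without that of replicate 3 and 324 without that of replicate 2. It was 325 with a dye coefficient, 419 with a replicate block and 0 with each time point fitted alone. At 0, 3 and 6 h 0 of 43 were called, beside 0% of all genes. None was called either for 3, 6 or 9 h minus 0 h, where again 0% of all genes passed. At an unadjusted p under 0.05 the limma fit held 2 of 43 members at 0 h (6.16% of all genes) and 1 at 3 h (4.15%). It held 3 at 6 h (8.89%) and, at 9 h, 4 members, which is 9.30% of them beside 18.8% of all genes. Without the 9 h array of replicate 2 the count at 9 h was 9, without all arrays of replicate 2 it was 10, and it was 7 with a dye coefficient or robust regression. For 9 h minus 0 h the fit held 5 members, beside 9.60% of all genes, and 1 without replicate 2. The share of all genes at this p was not worked out for arrays left out, a dye coefficient or robust regression. The member counts under those settings are therefore no result about the members.

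The median log2 ratio of the 43 genes began at 0.005 at 0 h, stood at −0.02 after 3 h and 0.0006 after 6 h, and reached 0.02 at 9 h. For single arrays of 9 h the median over the members was 0.03, −0.07, 0.04 and 0.05 in replicates 1, 2, 3 and 4, and over all genes the median of the means was 0.001. The median size of the log2 ratio, regardless of sign, was 0.05 among the members and 0.07 among all genes at 9 h, and 0.07 among the members and 0.05 among all genes at 0 h. The highest mean at 9 h was that of PSMB2 at 0.17 and the lowest that of PSMD5 at −0.30. All 4 arrays of 9 h lay above 0 for 2 members, beside 9.63% of all genes, and below 0 for 4 members, beside 11.1% of all genes, and the other 37 members had arrays on both sides of 0.

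The limma fit allows a limit on what could have been missed, if a gene has the same spread on every array. Its intervals pool the spread over the arrays of all time points, with no term for dye or replicate. For 39 of the 43 members (90.7%), the 95% interval of the mean at 9 h lay wholly within a 1.3-fold change in either direction, and the same held for 81.0% of all genes. PSMC3 counts among the 39, at −0.24 to 0.37, although its 4 arrays of 9 h had an SD of 0.45. The limit therefore does not cover dye or replicate effects or the noisier array of replicate 4 at 9 h. The 4 members whose interval reached past 1.3-fold were PSMD5, PSMD10, PSMD2 and PSMC4. PSMD5, a chaperone of the cap, had an interval of −0.43 to −0.16. The intervals of the other 3 included 0, at −0.15 to 0.45 for PSMD10, also known as gankyrin, another chaperone of the cap, at −0.39 to 0.18 for PSMD2, a scaffold subunit of the cap, and at −0.40 to 0.27 for PSMC4, one of its ATPases.

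**Figure D1:**
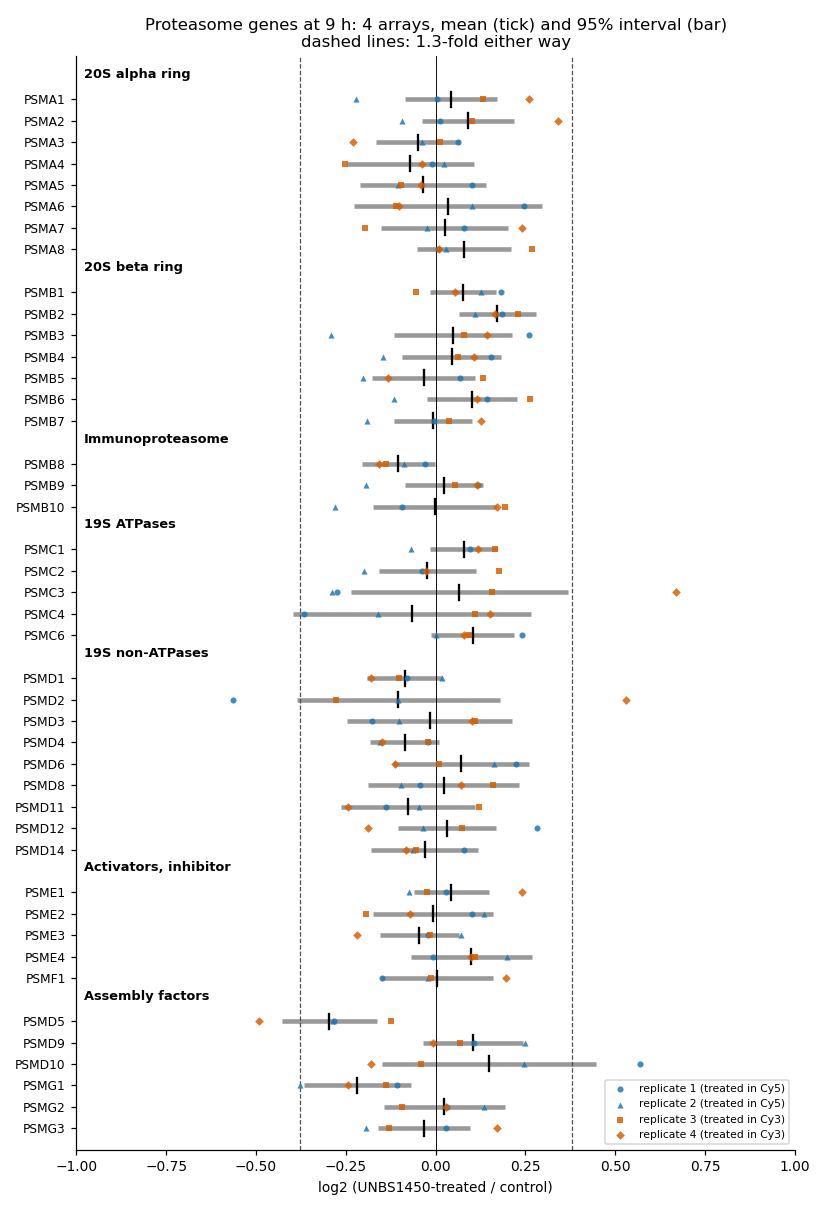
Log2 ratio of UNBS1450-treated over control cells at 9 h (horizontal axis) for 43 proteasome genes grouped by role (vertical axis), with 1 point per array, a tick at the mean of 4 arrays and a bar for the 95% interval of the limma fit. For 39 genes the bar stays between the dashed lines of a 1.3-fold change, and the bars of PSMD5 and PSMG1 lie wholly below 0 by the widest margin.

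Among the assembly factors, 2 of 6 genes had an unadjusted p under 0.05 at 9 h, both lower in treated cells, as were 10.2% of all genes. PSMD5 holds ATPase subunits of the cap until they join the core. At 9 h its log2 ratios were −0.28, −0.28, −0.13 and −0.49 in replicates 1, 2, 3 and 4, so all 4 arrays lay below 0. The mean of −0.30 ± 0.15 (SD, n = 4) is 0.815 times the control level. In this fit it had the only adjusted p under 0.05 among the members (0.041 in limma, beside 1.23% of all genes), but stayed short of the 1.3-fold threshold. The adjusted p of PSMD5 was 0.067 with the highest-F spot or with array weights, and 0.25 without the 9 h array of replicate 4. At 3 h PSMD5 also had all 4 arrays below 0, at −0.20, −0.09, −0.10 and −0.14, and at 6 h 3 of the 4 arrays lay below 0. Its 2 spots gave −0.27 and −0.32 at 9 h. The 9 h minus 0 h difference of PSMD5 was −0.30 (SE 0.09, adjusted p = 0.45 in limma), with 0.005 at 0 h.

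PSMG1, which pairs with PSMG2 as the chaperone that assembles the alpha ring, had log2 ratios of −0.11, −0.38, −0.14 and −0.25 at 9 h, again all below 0. Its mean was −0.22 ± 0.12 (SD, n = 4), or 0.860 times control, with an adjusted p of 0.11 in limma. Its 2 spots both gave −0.22 at 9 h. At 0 h the 4 arrays of PSMG1 stood at 0.12, 0.36, −0.01 and 0.03, and its 9 h minus 0 h difference of −0.34 (SE 0.10, adjusted p = 0.45) was the lowest of all members. Part of that difference lies in the ratios of untreated cells, where 3 of 4 arrays were above 0. Its partner PSMG2 was at 0.02 at 9 h and PSMG3 at −0.03, neither with an unadjusted p under 0.05.

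PSMD9, a chaperone of the cap, ran the other way. Its log2 ratios at 9 h were 0.11, 0.25, 0.07 and −0.006, with 3 of 4 arrays above 0 and a mean of 0.10 ± 0.11 (SD, n = 4), which was 0.06 without the array of replicate 2. At 0 h its arrays were at −0.06, −0.23, 0.01 and −0.28, so that the 9 h minus 0 h difference was 0.24 (SE 0.09, adjusted p = 0.51 in limma). Its 2 spots gave 0.05 and 0.16 at 9 h, and they stood further apart, at −0.30 and 0.02, at 0 h. In PSMD10 the replicate pairs, which are also the dye orientations, stood far apart. It was at −0.04 and −0.18 in replicates 3 and 4 and at 0.57 and 0.25 in replicates 1 and 2 at 9 h, and nearly the same split, −0.25 and −0.18 against 0.51 and 0.17, was present in the untreated cells of 0 h.

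**Figure D2:**
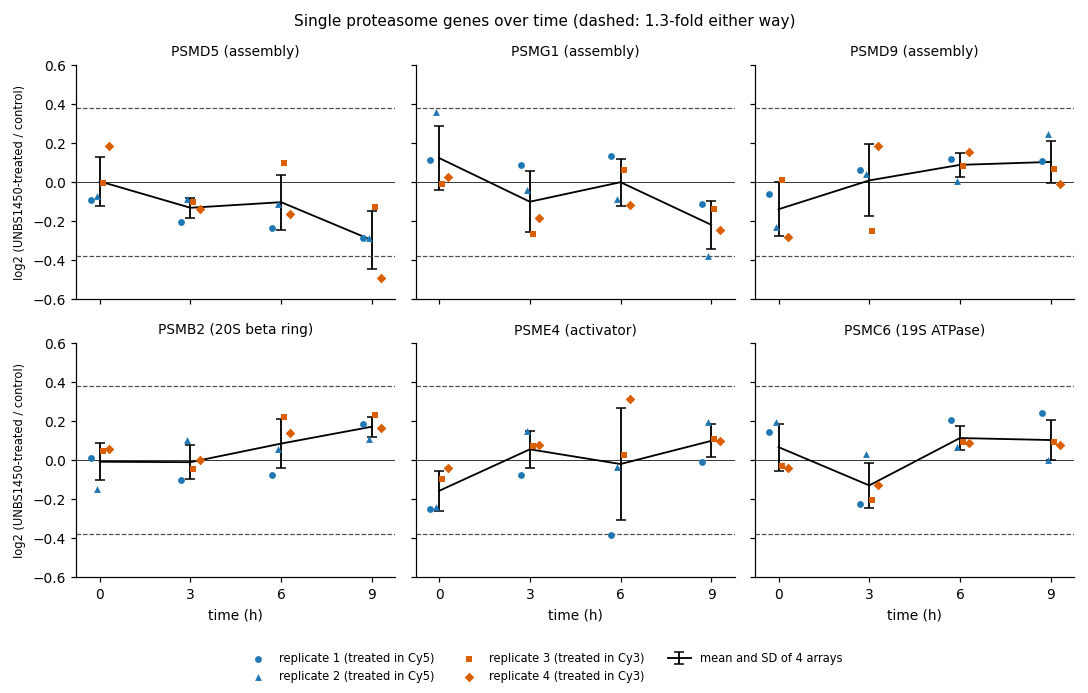
Log2 ratio of UNBS1450-treated over control cells (vertical axis) at 0, 3, 6 and 9 h (horizontal axis) for 6 proteasome genes, with 1 point per array and the mean with SD of 4 arrays. PSMD5 and PSMG1 have all 4 points below 0 at 9 h, PSMB2 has all 4 above 0, and PSMC6 has its lowest mean, −0.13, at 3 h.

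In the core, 15 genes of the alpha and constitutive beta rings had a median of 0.04 at 9 h and −0.03 for 9 h minus 0 h. All 15 had a 95% interval within 1.3-fold at 9 h, beside 81.0% of all genes. An unadjusted p under 0.05 at 9 h was held by 1 of the 15, beside 18.8% of all genes. That gene was PSMB2, a beta subunit without an active site, at 0.18, 0.11, 0.23 and 0.16 in the 4 replicates, all above 0 and close together. The mean of PSMB2 was 0.17 ± 0.05 (SD, n = 4), 1.13 times control, with an adjusted p of 0.090 in limma. That p was 0.039 with a dye coefficient, 0.042 with a replicate block, 0.0089 with robust regression and 0.026 with the highest-F spot, all short of 1.3-fold. In limma it was 0.19 with array weights, 0.32 without the 9 h array of replicate 4 and 0.52 with each time point fitted alone. The 3 spots of PSMB2 gave 0.07, 0.21 and 0.23, and the gene was at −0.008 at 0 h, for a difference of 0.18 (SE 0.07, adjusted p = 0.51). The 7 constitutive beta genes ranged between −0.03 for PSMB5 and 0.17 for PSMB2 at 9 h.

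The 8 alpha genes ranged between −0.07 for PSMA4 and 0.09 for PSMA2 at 9 h. None had an unadjusted p under 0.05 at any time, beside 4.15% of all genes at 3 h and 18.8% at 9 h. PSMA8, the alpha subunit of testis proteasomes, was the only one with all 4 arrays above 0 at 9 h, at 0.007, 0.03, 0.27 and 0.008, and 3 of these values are next to 0. Without replicate 3 its mean was 0.01. PSMA3 had the lowest 9 h minus 0 h difference of the core, −0.12 (SE 0.08, adjusted p = 0.62), with −0.05 at 9 h and 0.07 at 0 h. The medians of the alpha ring also differed between the replicate pairs, at −0.04 in replicates 3 and 4 and 0.14 in replicates 1 and 2 at 0 h, and at −0.02 and 0.009 at 9 h.

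In the cap, the 5 ATPases had a median of 0.07 and the 9 non-ATPase subunits one of −0.03 at 9 h. No cap gene had an unadjusted p under 0.05 at 9 h, beside 18.8% of all genes. A 95% interval within 1.3-fold held for 12 of 14, beside 81.0% of all genes. The median of all 14 was −0.02, beside 0.04 in the core. In the untreated cells of 0 h the medians already stood at −0.02 in the cap and 0.02 in the core. For 9 h minus 0 h the order was reversed, with 0.03 in the cap and −0.03 in the core. On single arrays of 9 h the cap medians were −0.04, −0.08, 0.10 and 0.02 in replicates 1, 2, 3 and 4. The core medians on the same arrays were 0.08, −0.09, 0.06 and 0.11, so the order of cap and core differed between arrays. PSMD4, a ubiquitin receptor, was the only cap gene with all 4 arrays on one side at 9 h, at −0.02, −0.15, −0.02 and −0.15, with a mean of −0.09 and an adjusted p of 0.33 in limma. Its 2 spots were at −0.06 and −0.11.

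The ATPase PSMC6 had its lowest ratios at 3 h, at −0.22, 0.03, −0.20 and −0.12, with a mean of −0.13, against 0.07 at 0 h (difference −0.20, SE 0.08, adjusted p = 0.59). Its 4 spots agreed, ranging between −0.17 and −0.11 at 3 h and between 0.09 and 0.12 at 9 h. The mean of PSMC6 at 9 h was 0.10. PSMC1, another ATPase, had all 4 arrays above 0 at 6 h, at 0.05, 0.10, 0.16 and 0.10, with an adjusted p of 0.53. PSMD2 had all 4 below 0 at 6 h, at −0.49, −0.10, −0.26 and −0.32, with an adjusted p of 0.54. At 9 h its arrays were spread over −0.56, −0.11, −0.28 and 0.53, so the direction at 6 h was not kept on every array. At 0 h 3 of the 4 arrays of PSMD2 were below 0 as well, with a mean of −0.23.

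Several cap genes split between the 2 replicate pairs, which are also the dye orientations. PSMC3, an ATPase, was at 0.16 and 0.67 in replicates 3 and 4 and at −0.27 and −0.29 in replicates 1 and 2 at 9 h, and at 0.14 and 0.12 against −0.25 and −0.42 at 0 h. PSMC4 had the same split, with 0.11 and 0.15 against −0.37 and −0.16 at 9 h and 0.13 and 0.14 against −0.45 and −0.73 at 0 h. At 9 h the 2 orientations did not overlap for 21 of the 43 members (48.8%), beside 45.1% of all genes, and at 0 h they did not overlap for 34 members (79.1%), beside 58.5% of all genes. The gap between orientations had one sign at all 4 time points for 27 members (62.8%) and for 44.2% of all genes. PSMD5, PSMG1, PSMD4 and PSMB2 had gaps of −0.02, 0.05, 0.002 and 0.05 at 9 h, among the smaller ones, beside a median size of 0.13 over the members. PSMB8 and PSMA8, also with all 4 arrays of 9 h on one side, had gaps of −0.09 and 0.12. The orientations of PSMB8 did not overlap. All of these genes were named because their arrays share a sign, which favours a small gap, so the gaps are no separate support for them.

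**Figure D3:**
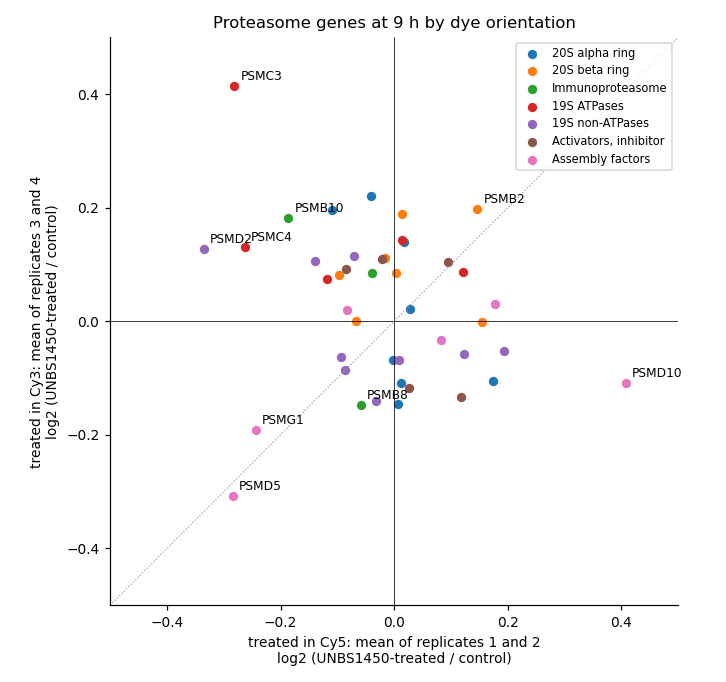
Mean log2 ratio of treated over control at 9 h in replicates 3 and 4, with treated RNA in Cy3 (vertical axis), set against replicates 1 and 2, with treated RNA in Cy5 (horizontal axis), 1 point per proteasome gene coloured by role. PSMD5, PSMG1 and PSMB2 lie near the dotted line of equal values, whereas PSMC3 is at 0.41 with treated RNA in Cy3 and −0.28 with it in Cy5, and for 27 of 43 genes the signs are opposite. The share of all genes with opposite signs was not worked out.

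The immunoproteasome subunits were set beside the constitutive subunits they replace. At 9 h PSMB8, PSMB9 and PSMB10 had means of −0.10, 0.02 and −0.002, and none was called at any time. PSMB8, which takes the place of PSMB5, was at −0.03, −0.09, −0.14 and −0.16 at 9 h, all 4 below 0. It was also below 0 on all 4 arrays of 6 h, with a mean of −0.15 (adjusted p = 0.49 in limma), and on all 4 of 0 h, at −0.15, −0.21, −0.07 and −0.01, where both dyes held untreated cells. The 9 h minus 0 h difference of PSMB8 was therefore 0.006 (95% interval −0.14 to 0.15).

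PSMB9, which takes the place of PSMB6, stood at 0.12, −0.19, 0.05 and 0.11 at 9 h, and PSMB10, which takes that of PSMB7, at −0.09, −0.28, 0.19 and 0.17, with both signs in each. Their differences from 0 h were −0.06 (95% interval −0.21 to 0.10) for PSMB9 and −0.09 (95% interval −0.34 to 0.15) for PSMB10. Of the constitutive partners, PSMB5 stood at 0.07, −0.20, 0.13 and −0.13, PSMB6 at 0.14, −0.12, 0.26 and 0.11, and PSMB7 at −0.003, −0.19, 0.04 and 0.13. Replicate 2 was the lowest array of 5 of these 6 genes at 9 h, PSMB8 being the exception.

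Within an array, the immunoproteasome subunit minus its partner averaged −0.07 ± 0.16 for PSMB8 minus PSMB5, −0.08 ± 0.09 for PSMB9 minus PSMB6 and 0.005 ± 0.12 for PSMB10 minus PSMB7 at 9 h (SD, n = 4 each). At 0 h the same differences were −0.05 ± 0.07, 0.07 ± 0.10 and 0.09 ± 0.14. Each of these means is smaller than its SD, but at 6 h PSMB8 minus PSMB5 was −0.11 ± 0.09, below 0 on 3 of 4 arrays. At 6 h PSMB9 minus PSMB6 was −0.02 ± 0.17 and PSMB10 minus PSMB7 was 0.006 ± 0.19. An exchange of constitutive for immunoproteasome transcripts was not tested.

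**Figure D4:**
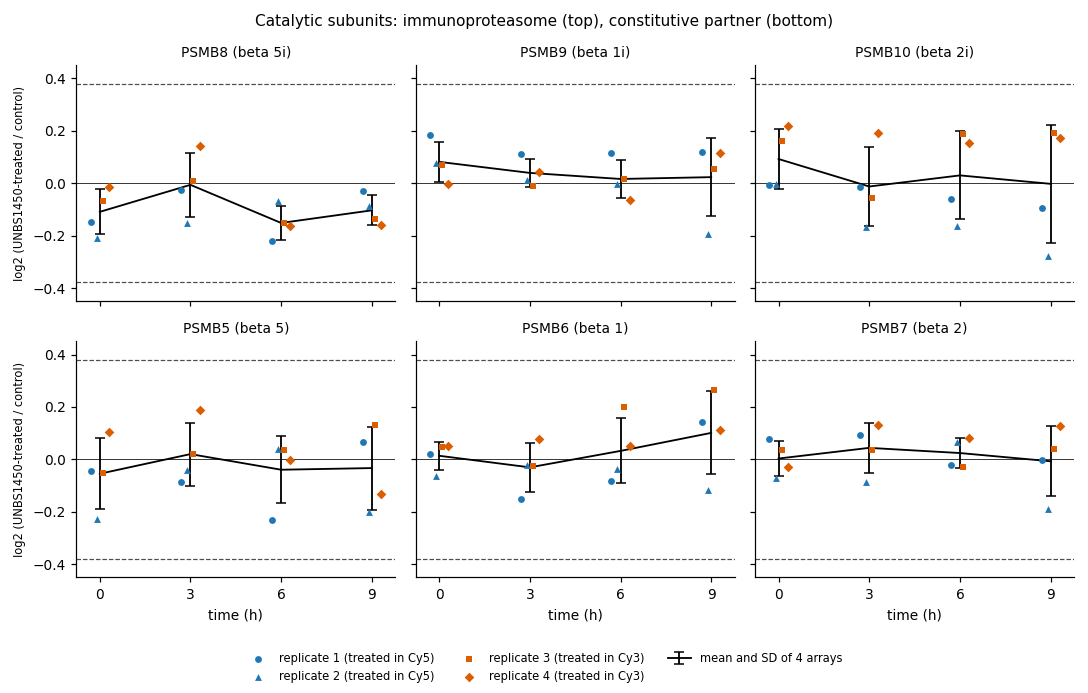
Log2 ratio of UNBS1450-treated over control cells (vertical axis) at 0, 3, 6 and 9 h (horizontal axis) for the 3 immunoproteasome subunits, above, and the constitutive subunit each replaces, below, with 1 point per array and the mean with SD of 4 arrays. All points lie within the dashed lines of a 1.3-fold change, and PSMB8 is below 0 on all 4 arrays at 0, 6 and 9 h.

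The activators and the inhibitor had a median of −0.13 at 0 h and of 0.004 at 9 h. PSME1 and PSME2, the interferon-induced subunits of one activator, were at 0.04 and −0.008 at 9 h. PSME4, the large nuclear activator, had log2 ratios of −0.008, 0.20, 0.11 and 0.10 at 9 h, against −0.25, −0.24, −0.10 and −0.04 at 0 h. Its difference of 0.26 (SE 0.11, adjusted p = 0.51 in limma) was the highest of all members for 9 h minus 0 h, and its larger part came from the negative ratios of untreated cells, with a mean of 0.10 at 9 h against −0.16 at 0 h. PSME3, the nuclear activator related to PSME1, was below 0 on all 4 arrays of 0 h, with a mean of −0.13, and at −0.05 at 9 h. PSMF1, the inhibitor, was at 0.004 at 9 h.

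**Figure D5:**
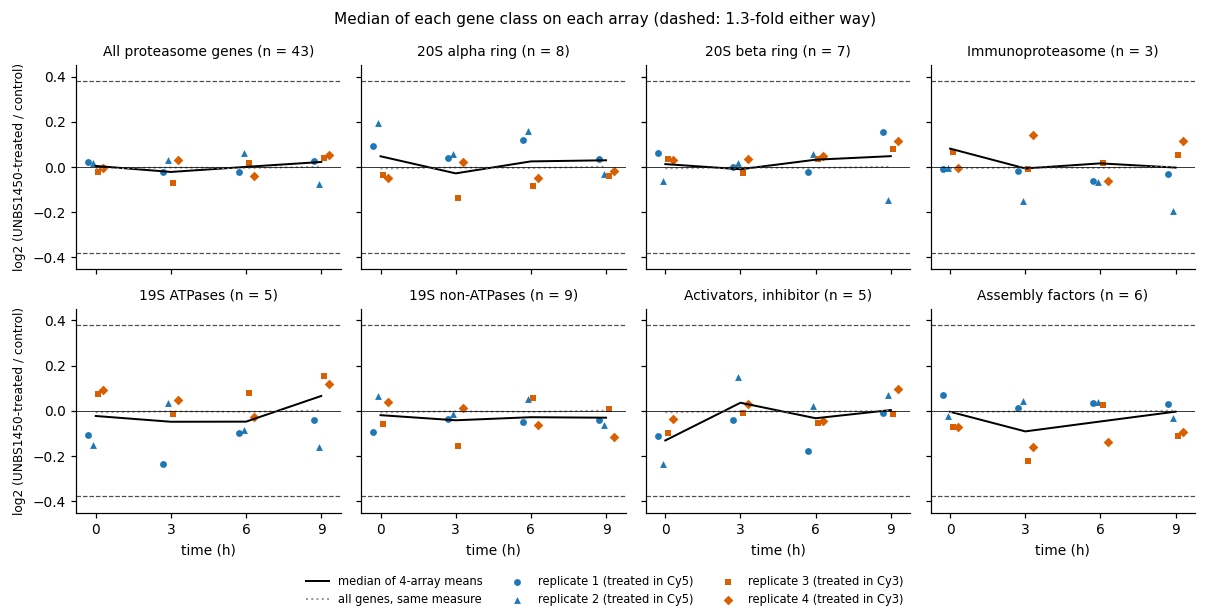
Median log2 ratio of treated over control (vertical axis) over all 43 proteasome genes and over each class at 0, 3, 6 and 9 h (horizontal axis), with 1 point per array, a line for the median of the 4-array means and a dotted line for all genes. No class median on any array reaches the dashed lines of a 1.3-fold change, and at 0 h the 2 dye orientations lie furthest apart in the alpha ring and the ATPases.

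Where a gene had several spots, they gave a second reading. Of the 43 members, 20 had 2 to 4 spots, and the spread between the lowest and the highest spot at 9 h had a median of 0.05. For 6 of the 20 the spots lay on both sides of 0 at 9 h. PSMD1, another scaffold subunit of the cap, had the widest gap, with −0.22 and 0.05.

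The promoters of PSMD5 and PSMG1, the lowest members at 9 h, of PSMB2, the highest, and of PSMB9, which lies next to TAP1, are shown because many proteasome genes are known to carry an antioxidant response element, the site at which NFE2L1 and NFE2L2 with small MAF proteins act on them. The windows hold 250 bases before and 50 bases after the transcript start in RefSeq (GRCh38.p14), and the capitals mark TGACNNNGC, the letters of that element, searched on both strands. On the PSMB9 promoter the letters are on the opposite strand, and the PSMB2 window holds none.
PSMD5 (chr9:120842873-120843172, minus strand): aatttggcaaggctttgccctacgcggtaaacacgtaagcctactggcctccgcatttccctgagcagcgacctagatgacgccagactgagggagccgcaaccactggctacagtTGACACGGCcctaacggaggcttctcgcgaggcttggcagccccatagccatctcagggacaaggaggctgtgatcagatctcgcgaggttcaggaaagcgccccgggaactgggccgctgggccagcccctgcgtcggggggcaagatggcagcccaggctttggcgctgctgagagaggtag
PSMG1 (chr21:39183402-39183701, minus strand): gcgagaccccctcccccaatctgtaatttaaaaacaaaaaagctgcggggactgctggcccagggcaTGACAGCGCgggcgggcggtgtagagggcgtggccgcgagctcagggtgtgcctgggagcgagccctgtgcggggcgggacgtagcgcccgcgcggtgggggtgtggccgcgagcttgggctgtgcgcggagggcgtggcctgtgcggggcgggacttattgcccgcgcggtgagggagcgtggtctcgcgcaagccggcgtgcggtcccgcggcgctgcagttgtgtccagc
PSMB2 (chr1:35641477-35641776, minus strand): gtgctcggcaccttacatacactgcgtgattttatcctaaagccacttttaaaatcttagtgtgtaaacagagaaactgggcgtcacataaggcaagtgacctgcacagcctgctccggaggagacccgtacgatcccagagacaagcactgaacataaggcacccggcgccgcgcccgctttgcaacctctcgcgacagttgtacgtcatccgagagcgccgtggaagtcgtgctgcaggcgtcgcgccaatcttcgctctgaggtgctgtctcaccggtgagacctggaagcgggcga
PSMB9 (chr6:32853942-32854241, plus strand): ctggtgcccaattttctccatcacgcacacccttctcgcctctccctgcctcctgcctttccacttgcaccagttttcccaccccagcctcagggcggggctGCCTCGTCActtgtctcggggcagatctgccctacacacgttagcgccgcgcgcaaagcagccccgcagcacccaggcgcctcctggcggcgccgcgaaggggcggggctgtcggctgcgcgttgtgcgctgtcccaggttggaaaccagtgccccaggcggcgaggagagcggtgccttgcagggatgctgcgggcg
The letters began 134 bases before the start of PSMD5, 183 before that of PSMG1 and 148 before that of PSMB9.

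RefSeq promoters were matched for 37 of the 43 members. TGACNNNGC occurred for 14 of the 37 genes (37.8%) and for 16.1% of all 27305 genes in the table. The 14 genes had a median log2 ratio of 0.008 at 9 h and ranged between −0.30 and 0.10, and the 23 without the letters had a median of 0.02 and ranged between −0.10 and 0.17. PSMD5 and PSMG1, the lowest members at 9 h, both carry the letters, as do PSMD9 and PSME4, the 2 members with the highest differences of 9 h minus 0 h. A match is a description of the sequence and not a mapped site.

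Of the regulators of proteasome genes, 11 of 12 were measured and 0 were called at any time. Of all genes, 0.531% were called at 9 h and 0% earlier. At 9 h 1 regulator had an unadjusted p under 0.05, beside 18.8% of all genes. That gene was MAFG, a small MAF partner of NFE2L1, at −0.01, −0.05, 0.34 and 0.61, with an adjusted p of 0.26 in limma. Its replicates 3 and 4 stood apart from replicates 1 and 2, and its mean of 0.22 was 0.09 without replicate 4. NFE2L1, which raises proteasome genes when the proteasome is blocked, was at 0.02, −0.02, 0.10 and 0.50, and only replicate 4 was far from 0. Without replicate 4 its mean was 0.03. With all arrays the mean of NFE2L1 was 0.15, and it was 0.35 with the highest-F spot (adjusted p = 0.087 in limma). UBB was the 1 measured gene of 4 that encode ubiquitin, at −0.04, 0.14, −0.09 and −0.15 at 9 h.

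Of 19 other proteasome factors, 18 were measured and 0 were called at any time, beside 0.531% of all genes at 9 h. At an unadjusted p under 0.05 at 9 h, 2 were higher and 2 lower, beside 8.57% and 10.2% of all genes. UBLCP1, a phosphatase that acts on the proteasome in the nucleus, was at −0.26, −0.01, −0.34 and −0.63 at 9 h, all below 0, with a mean of −0.31 and an adjusted p of 0.065 in limma. Without the array of replicate 4 the mean was −0.21 (adjusted p = 0.34). It had also been below 0 on all 4 arrays of 3 h, at −0.44, −0.08, −0.39 and −0.40, but not at 6 h, where its mean was −0.07. PAAF1, which binds the ATPases and keeps cap and core apart, was at −0.005, −0.19, −0.04 and −1.11 at 9 h, so that replicate 4 carried its mean of −0.34. Without replicate 4 that mean was −0.08.

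Class I antigen presentation, which the immunoproteasome serves, was measured for 15 of 17 genes. At 9 h 1 was called, ERAP2, an endoplasmic peptidase that trims peptides for class I molecules, beside 0.531% of all genes, and 4 were higher at an unadjusted p under 0.05, beside 8.57% of all genes, with 0 lower. ERAP2 was at 0.46, 0.22, 0.21 and 0.63 at 9 h, all above 0, with a mean of 0.38, which only just reached the 1.3-fold threshold (adjusted p = 0.044 in limma). Against 0 h, where all 4 arrays were below 0, the difference of ERAP2 was 0.55 (SE 0.12, adjusted p = 0.33). Its 2 spots gave 0.55 and 0.20 at 9 h and −0.36 and 0.01 at 0 h. The call was lost without replicate 1, 2, 3 or 4 and under several other settings.

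TAP1, the transporter that carries peptides into the endoplasmic reticulum, starts 488 bases from PSMB9 on the opposite strand. TAP1 was at 0.21, 0.20, 0.07 and 0.52 at 9 h, all above 0, with a mean of 0.25 ± 0.19 (SD, n = 4), 1.19 times control, and an adjusted p of 0.051 in limma. Without the array of replicate 4 the mean of TAP1 was 0.16 (adjusted p = 0.29). PSMB9 on the same arrays averaged 0.02 ± 0.15. Within an array TAP1 minus PSMB9 was 0.09, 0.39, 0.02 and 0.41 at 9 h, above 0 on 4 of 4 arrays, whereas at 0 h it was −0.12, 0.06, −0.15 and 0.04. This difference within arrays was picked after its values were seen and was not tested.

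The 5 genes that share only the prefix are given for completeness. PSMC3IP, a cofactor of recombination in meiosis, was at 0.37, 0.17, 0.45 and 1.89 at 9 h, with a mean of 0.72 ± 0.79 (SD, n = 4) and an adjusted p of 0.085 in limma. All 4 arrays lay above 0, and replicate 4 was far above the rest at 6 h too, at 1.03 beside 0.11, 0.04 and 0.09. Without replicate 4 its mean at 9 h was 0.33. The antisense RNA PSMA3-AS1 was at 0.12, 0.04, 0.05 and 0.68 and PSMG3-AS1 at −0.11, −0.13, −0.12 and −0.44 at 9 h, where again replicate 4 was the furthest from 0. Without it their means were 0.07 and −0.12, and the strand of the spots was not checked here. PSMD7-DT, a divergent transcript beside PSMD7, averaged −0.05 and PSME3IP1, which binds PSME3, −0.04, with arrays on both sides of 0.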

How the data were processed

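Total RNA of U937 cells was hybridised to 16 Agilent whole-genome arrays of 2 colours. The deposited values are log2 ratios of Cy5 over Cy3, which the authors made with GenePix Pro and limma by normexp background subtraction (offset 50), loess within arrays and Aquantile between arrays. Their scale and direction were checked against the log2 fold changes in the supplementary table, where the mean of the 4 turned ratios at 9 h was the same within 0.01 for 186 of 198 well-expressed spots. Neither intensities nor spot weights were used, and the centring before deposit is not given beyond this normalization.

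Of 45220 spots, 40563 had values on all arrays, and 28970 carried a single gene symbol in the platform annotation (11507 unlisted and 86 with several symbols were left out). Symbols were brought up to date through gene identifiers, spots were averaged per gene, and the sign of replicates 3 and 4 was turned to give treated over control. The model, with 1 coefficient for each time point over the 16 arrays, was fitted in limma 3.58.1 (lmFit, eBayes) under R 4.3.3, with 12 residual and 3.20 prior degrees of freedom, with Benjamini-Hochberg adjustment over 17329 genes per comparison, and checked on simulated data. The simulated errors were independent, with the same spread on every array of a gene and no dye or replicate effect. The check therefore does not cover such effects or a noisier array. Differences from 0 h are contrasts that share the 0 h arrays. With 4 arrays per time point, precision is limited by their number.

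Members and lists were chosen with earlier results of these data known. Named genes are called members, the 6 catalytic subunits, the 4 highest and 4 lowest at 9 h whose 4 arrays share a direction (2 above and 4 below qualified), the 3 largest and 3 smallest differences from 0 h, and in each list of related genes those called and the 2 with the smallest p. The other genes named were chosen after their values were seen. Summaries used Python 3.11.15 and plots matplotlib 3.10.9.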

Additional observations from a re-analysis of the deposited data

Results flagged for a closer look

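A single array stood apart from the other 3 in 8 of 104 sets of 4 arrays, over 26 named genes and 4 time points, and chance gives about 1 in 20. The array of replicate 4 was the one apart in 5 of the 8. At 9 h these were PSMC3IP at 1.89 (others 0.17 to 0.45), PSMA3-AS1 at 0.68 (others 0.04 to 0.12), PSMG3-AS1 at −0.44 (others −0.13 to −0.11) and PAAF1 at −1.11 (others −0.19 to −0.005), and at 6 h PSMC3IP at 1.03 (others 0.04 to 0.11). The SD over all genes was 0.38 on the replicate 4 array of 9 h and 0.24 on that of 6 h, the highest values of their time points, and their part in these results was not tested. Of the proteasome genes, PSMA8 at 9 h had replicate 3 at 0.27 (others 0.007 to 0.03), and PSMB5 at 6 h had replicate 1 at −0.23 (others −0.002 to 0.04). UBLCP1 at 3 h had replicate 2 at −0.0756, nearer to 0 than the others (−0.44 to −0.39).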

How the results depend on the processing

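Across 18 other settings, 0 of 43 proteasome genes were called at 0, 3, 6 or 9 h and for each difference from 0 h, including robust regression, array weights, a dye coefficient and leaving out any replicate or any single array of 9 h, the last chosen after seeing the data. In many of these settings no gene of any kind was called, in 6 of 18 at 9 h, 15 for 9 h minus 0 h, 17 at 0, 3 and 6 h and for 3 h minus 0 h, and 18 for 6 h minus 0 h, so that 0 members there is no sign of stability. Same-numbered deviations correlated between 0.04 and 0.66 and arrays of another number in the same dye between −0.09 and 0.67. These ranges overlap, so whether the replicate numbers pair the samples was not settled. With a replicate block 0 members were called and their median at 9 h was 0.0223. The median at 9 h was 0.02, and ranged between −0.00737 and 0.0402 where a replicate or a 9 h array was left out, between −0.00882 and 0.0241 in the other fits, and was 0.03 in replicates 3 and 4 and −0.02 in replicates 1 and 2. The adjusted p of PSMD5 at 9 h ranged between 0.00094 with robust regression and 0.52 with each time point fitted alone, and its mean between −0.35 and −0.23. Of 468 other values of the 26 named genes at 9 h, 427 kept direction and call, 11 lost the call, 5 gained it and 25 changed sign, all of the last from means within 0.05 of 0; the cause was not tested. PSMB7 and PSMB10 turned to 0.0176 and 0.00646 with robust regression, and PSMB9, UBB and PSME3IP1 to −0.0147, 0.0156 and 0.0452 with array weights. Leaving out an array gave ranges of −0.0881 to 0.0229 for PSMB5, −0.0515 to 0.0537 for PSMB7, −0.00852 to 0.0955 for PSMB9, −0.0673 to 0.0897 for PSMB10, −0.0859 to 0.0115 for PSMA3, −0.0939 to 0.00453 for UBB and −0.132 to 0.0124 for PSME3IP1. ERAP2 lost its call in 11 settings, with adjusted p between 0.013, where its fold fell short, and 0.52. UBLCP1 gained one without the 9 h array of replicate 2 (−0.41) but was at −0.21 without that of replicate 4 or with array weights, and PSMC3IP in 4 settings, at 0.41 with robust regression, 0.72 with a dye coefficient or a replicate block and 0.90 without the 9 h array of replicate 2. Depth is not defined for arrays, and no signal over background was used here.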
